A study of Rattus norvegicus with 10 samples.

Results

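The genes of the caveolar coat were followed through 5 lines labelled as rat A7r5 cells, a vascular smooth muscle line from embryonic aorta. The lines were transfected with forms of the BMP type II receptor, BMPR2, or with empty vector. Caveolin-1, -2 and -3 (Cav1, Cav2, Cav3) and cavin-1, -2 and -3 (Cavin1, Cavin2, Cavin3, known in older annotation as Ptrf, Sdpr and Prkcdbp) were taken, and every probe set annotated to one of them and to no other gene was kept. This gave 10 of the 31099 probe sets: 3 for Cav1, 4 for Cav2 and 1 each for Cav3, Cavin2 and Cavin3. Cavin1 had none and was not analysed here, so 5 of the 6 genes were measured.

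Each line was measured on 2 Affymetrix rat arrays, 10 arrays in all. The kinase domain (KD) mutant line carried BMPR2 with C994T, the cytoplasmic tail (CD) mutant line carried 2579-2580delT and the extracellular domain (ED) mutant line carried T354G. A further line carried wild-type human BMPR2, and the control line carried the empty vector. The labels of the control arrays differ: their titles and source call them native A7r5, whereas their description and transfection field name a stable empty vector, which is followed here. The lines were given as stably transfected and were kept without hypoxia in DMEM with 10% serum at about 50% confluence. No deletion of the cells' own rat Bmpr2 is given, so each receptor was added to whatever the cells made themselves. Whether a line was 1 clone or a pool, and whether its 2 arrays came from separate cultures, is not given in the sources used here, so the p-values describe array-to-array spread, part or all of which may be technical.

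Caveolae are small flask-shaped pits of the plasma membrane, abundant in smooth muscle, endothelium and adipocytes. Caveolins form the scaffold of the pit. Cav1 is required for caveolae outside striated muscle, Cav2 forms mixed oligomers with Cav1 and depends on it for reaching the surface, and Cav3 takes the place of Cav1 in skeletal and cardiac muscle. Cavins bind the caveolins from the cytoplasmic side and complete the coat: Cavin1 is needed for pit formation, Cavin2 helps to shape the membrane, and Cavin3 takes part in the trafficking of caveolae. BMP receptors are among the membrane proteins reported in caveolae, and mutations of human CAV1, like those of BMPR2, occur in hereditary pulmonary arterial hypertension.

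Cav1 and Cav2 are neighbours on rat chromosome 4, and the bases just before their start sites are shown because probe sets of these members gave the widest differences from the empty vector line in the absence of the KD mutant. RefSeq gives Cav1 a second start, whose window, chr4:46607722-46607971, is not printed. The sequences are from RefSeq on build GRCr8, on the plus strand, chr4:46606288-46606537 for Cav1 and chr4:46582431-46582680 for Cav2, and each holds the 250 bases before an annotated start. Capitals mark the GC box, GGGCGG or its reverse complement.
Cav1: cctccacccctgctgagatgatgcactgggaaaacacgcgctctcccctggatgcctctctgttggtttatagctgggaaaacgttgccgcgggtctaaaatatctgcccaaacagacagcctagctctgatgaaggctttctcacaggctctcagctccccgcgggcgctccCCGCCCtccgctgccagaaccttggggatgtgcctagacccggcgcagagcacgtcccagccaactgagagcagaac
Cav2: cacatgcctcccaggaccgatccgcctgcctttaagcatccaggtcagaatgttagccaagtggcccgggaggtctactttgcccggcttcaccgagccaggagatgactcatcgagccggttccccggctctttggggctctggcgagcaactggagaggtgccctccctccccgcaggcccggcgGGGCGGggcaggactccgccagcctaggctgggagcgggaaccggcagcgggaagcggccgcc
Each printed window held 1 GC box, which 30.5% of 33465 such rat windows held on either strand. The GC content of the Cav2 window was 68.4%, against a median of 51.2% over all windows. The printed Cav1 window also held 1 TATAAA, found in 12.9% of windows, and 1 CAGAC, the short SMAD binding element, found in 42.9%; neither stood in the Cav2 window. The second Cav1 window held none of the GC box, TATAAA and CAGAC, and 1 E-box. An E-box, CANNTG, was present 1 time in the printed window for Cav1 and 3 times for Cav2, and 65.5% of windows had at least one. None of the 3 windows held GGCGCC, an element bound by BMP SMADs that 8.7% of windows held, or a CArG box, the element of serum response factor, that 1.5% held. All motifs were searched on both strands, and matches describe letters only.

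The 2 arrays with the KD mutant label differed widely from the remaining 8. Whether any of the 10 arrays, the empty vector arrays included, holds the cells and construct of its label was not tested. KD mutant and the other line names below therefore stand for labels. Their Pearson correlation with the others over all probe sets was 0.71 to 0.72, against 0.99 to 1.00 among the other 8 and 0.99 between the KD mutant arrays themselves. Their poly-A spike-in controls averaged 7.26 and 6.64 on the log2 scale, against 7.49 to 8.62 on the other arrays, and their hybridization controls 10.41 and 10.47, against 11.16 to 11.35. The 3′ minus 5′ difference of the Gapdh probe sets, a measure of RNA integrity, was 0.04 and 0.30 on the KD mutant arrays, against 0.37 to 0.43 on the others. The same difference for the Actb probe sets did not set them apart: it was 0.92 and 1.21 on the KD mutant arrays, against 0.94 to 1.14. The detection level used below is a log2 value of 4.82. Of 9 smooth muscle marker genes, 7 had a mean at or above it in the KD mutant and 6 in the other lines, where Cnn1, Lmod1 and Myocd, the smooth muscle coactivator, had means below it. Tagln, a smooth muscle actin-binding protein, had 11.15 to 11.51 in the KD mutant, against 4.82 to 5.19 elsewhere. Acta2, smooth muscle actin, had 9.05 to 9.72, against 6.15 to 6.41. Myh11, smooth muscle myosin, had 6.92 to 6.98, within the 6.55 to 7.13 found elsewhere. Of 7 tested smooth muscle genes, 5 were called higher than with wild-type BMPR2, 1 lower and 1 neither. Over all genes 36.0% were higher and 52.9% lower. Krt18, a keratin of simple epithelia, had 9.28 to 9.34 in the KD mutant, against 11.26 to 11.82 elsewhere. Averaged over its 9 genes, the smooth muscle list stood at 7.97 to 8.16 in the KD mutant, against 6.29 to 6.46 elsewhere. The 9 fibroblast markers averaged 7.98 to 8.03 in the KD mutant, with 6 gene means at the level, against 5.70 to 5.92 elsewhere, with 5. Col1a2, a collagen chain of this list, had 13.46 to 13.78 in the KD mutant, against 3.56 to 4.18 elsewhere. Of 7 tested genes of the list, 5 were called higher than with wild-type BMPR2 and 2 lower. The 8 epithelial markers averaged 5.49 to 5.54 in the KD mutant, with 5 at the level, against 7.14 to 7.44 elsewhere, with 6. The 6 tested epithelial genes were all called lower than with wild-type BMPR2, with a median difference of -1.88. Of the 6 adipocyte markers 0 reached the level in the KD mutant and 2 elsewhere, of the 7 striated muscle markers 4 and 5, and of the 6 endothelial markers 0 in both. Every comparison with the KD mutant below carries these differences, and their part in the results was not tested.

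**Figure D1:**
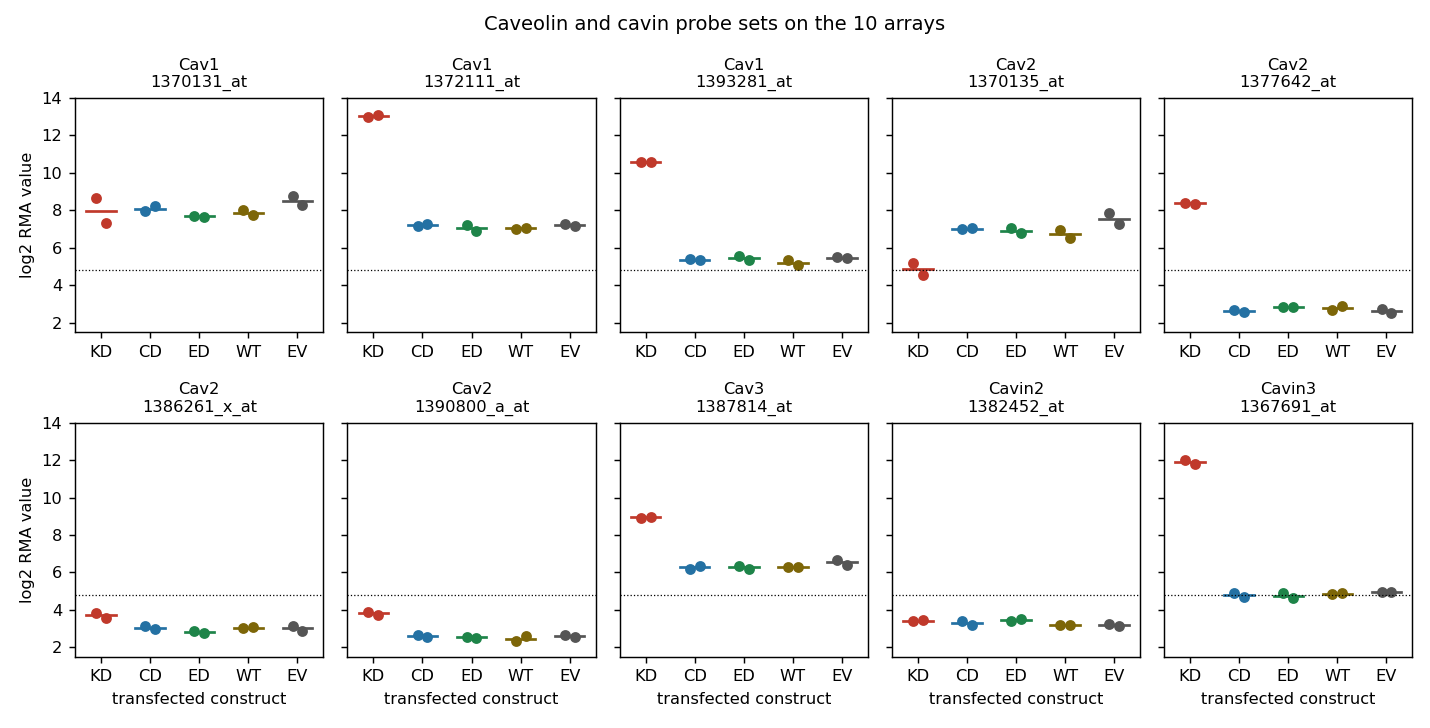
Log2 RMA value of each of the 10 probe sets (panels) on each array, with the lines from left to right KD mutant, CD mutant, ED mutant, wild-type BMPR2 and empty vector; points are arrays and the dotted line is the detection level of 4.82. Cavin3, Cav3, 2 Cav1 probe sets and Cav2 1377642_at are high on the KD mutant arrays, whereas Cav2 1370135_at is low there.

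Values below are log2 RMA levels, and a probe set was tested when at least 2 of the 10 arrays reached 4.82, the 40th percentile of all values. Of the 10 probe sets 7 passed. Cav2 1377642_at passed only through the 2 KD mutant arrays. Cavin2 1382452_at, Cav2 1386261_x_at and Cav2 1390800_a_at reached the level on no array.

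Cav1, the main scaffold protein, was read by 3 probe sets that gave different pictures. Cav1 1372111_at had 13.00 and 13.09 in the KD mutant, 7.19 and 7.25 in CD mutant cells, 7.20 and 6.91 in ED mutant cells, 7.02 and 7.07 with wild-type BMPR2 and 7.28 and 7.19 with empty vector. Cav1 1393281_at had 10.60 and 10.57 in the KD mutant, 5.40 and 5.33 in CD mutant cells, 5.57 and 5.35 in ED mutant cells, 5.34 and 5.06 with wild-type BMPR2 and 5.49 and 5.44 with empty vector. Both were far higher on the KD mutant arrays than on any other array. On the KD mutant arrays 1372111_at was above 99.6% to 99.7% of probe sets, against 79.4% to 83.4% on the others.

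The third Cav1 probe set, 1370131_at, had 8.68 and 7.30 in the KD mutant, 7.98 and 8.21 in CD mutant cells, 7.72 and 7.63 in ED mutant cells, 8.02 and 7.73 with wild-type BMPR2 and 8.75 and 8.29 with empty vector. Its KD mutant arrays lay on both sides of the wild-type, CD and ED mutant arrays. The gap of 1.37 between the 2 KD mutant arrays was wider than that of 99.9% of tested probe sets, whose median gap was 0.167. The empty vector arrays were the highest outside the KD mutant and did not overlap the CD mutant, ED mutant or wild-type arrays.

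Cav2, the partner of Cav1, also had probe sets that moved apart. Cav2 1370135_at had 5.19 and 4.54 in the KD mutant, 6.99 and 7.08 in CD mutant cells, 7.06 and 6.77 in ED mutant cells, 6.93 and 6.54 with wild-type BMPR2 and 7.86 and 7.25 with empty vector. The KD mutant arrays were the lowest, the empty vector arrays the highest, and of the 3 groups between them the ED mutant overlapped both others, while the CD mutant arrays lay above the wild-type arrays. Cav2 1377642_at had 8.40 and 8.35 in the KD mutant, 2.67 and 2.56 in CD mutant cells, 2.83 and 2.84 in ED mutant cells, 2.68 and 2.92 with wild-type BMPR2 and 2.73 and 2.54 with empty vector. It was below the detection level on all arrays but those of the KD mutant. The other Cav2 probe sets stayed below that level throughout, and both were higher on the KD mutant arrays than on any other: 1386261_x_at had 3.84 and 3.57 there, against 2.75 to 3.15, and 1390800_a_at had 3.89 and 3.74, against 2.35 to 2.68.

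Cav3, the muscle caveolin, had 8.93 and 8.98 in the KD mutant, 6.19 and 6.35 in CD mutant cells, 6.35 and 6.21 in ED mutant cells, 6.30 and 6.32 with wild-type BMPR2 and 6.68 and 6.39 with empty vector. After the KD mutant, the empty vector arrays were the highest and did not overlap the other lines. The striated muscle list, whose genes Cav3 usually accompanies, did not run with it: its 7 genes averaged 4.98 on both KD mutant arrays, against 5.56 to 5.82 on the others.

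Cavin3 had 12.01 and 11.78 in the KD mutant, 4.90 and 4.67 in CD mutant cells, 4.90 and 4.64 in ED mutant cells, 4.82 and 4.88 with wild-type BMPR2 and 4.93 and 4.97 with empty vector. On the 8 arrays outside the KD mutant it lay at about the detection level, which 6 of them reached, and on the KD mutant arrays it was above 98.9% to 99.1% of all probe sets. Cavin2 was low everywhere, with 3.39 and 3.47 in the KD mutant, 3.39 and 3.20 in CD mutant cells, 3.42 and 3.54 in ED mutant cells, 3.21 and 3.19 with wild-type BMPR2 and 3.27 and 3.15 with empty vector. All these values lie below the detection level, so no order is read from them.

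The arrays labelled KD mutant were set against those of wild-type BMPR2, the intact receptor. Cavin3, Cav3, 2 of 3 Cav1 probe sets and Cav2 1377642_at were higher, and Cav2 1370135_at was lower. In all, 6 of the 7 tested probe sets passed (limma, adjusted p under 0.05), where 89.6% of all 22502 tested probe sets passed, 34.5% higher and 55.1% lower. Cav2 1377642_at entered the test only through the KD mutant arrays, where it is high, and without it 5 of 6 passed. The coat genes' share is near the background. The median difference was -0.56 over all tested probe sets, against which each value below is to be read. In bulk RNA, fewer cells of a type and less RNA per cell cannot be told apart.

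Cavin3 had the widest difference among the coat genes, 7.04 ± 0.13 (log2, SE, 2 arrays each), or 132-fold, with limma's adjusted p of 9.94e-13. Its wild-type mean of 4.85 lay at about the detection level, so the size of this difference is not measured exactly. Cav1 1372111_at was 63.9-fold higher (limma adjusted p = 1.36e-12; SE 0.12 on the log2 scale), and Cav1 1393281_at differed by 5.38 ± 0.12, or 41.7-fold (limma adjusted p = 3.25e-12). Cav2 1377642_at differed by 5.58 ± 0.11, against a wild-type mean of 2.80 that lay below the detection level. Cav3 differed less, by 2.65 ± 0.12 or 6.26-fold (limma adjusted p = 9.89e-10). Cav2 1370135_at fell by 1.87 on the log2 scale, to a mean of 4.86 ± 0.46 in the KD mutant, against 6.73 ± 0.28 with wild-type BMPR2 (SD, n = 2 each; limma adjusted p = 8.45e-06). KD mutant replicate 2, at 4.54, lay below the detection level, so the size of this fall is not exact.

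Cav1 1370131_at did not pass: its difference from wild type was 0.11 (95% interval -0.60 to 0.83, limma adjusted p = 0.752), and its sign turned to -0.48 after quantile normalization. Without KD mutant replicate 1 it was -0.58, and without KD mutant replicate 2 it was 0.80. Each of these fits leaves a single KD mutant array and so no spread within that line, and no call is read from them. The direction at Cav1 1370131_at therefore depended on which KD mutant array was kept. Set against empty vector, the same 6 probe sets passed in the same directions, where 89.7% of all probe sets passed. There Cav1 1370131_at differed by -0.53 (limma adjusted p = 0.143), and Cav2 1370135_at fell by 2.69, a size as inexact as that against wild type. Against the CD and ED mutants the count was again 6 of 7, beside 89.6% and 89.4% of all probe sets. Each of these counts includes Cav2 1377642_at, which entered the test only through the KD mutant arrays. Without it 5 of 6 passed against empty vector, against the CD mutant and against the ED mutant. These comparisons share the KD mutant arrays.

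**Figure D2:**
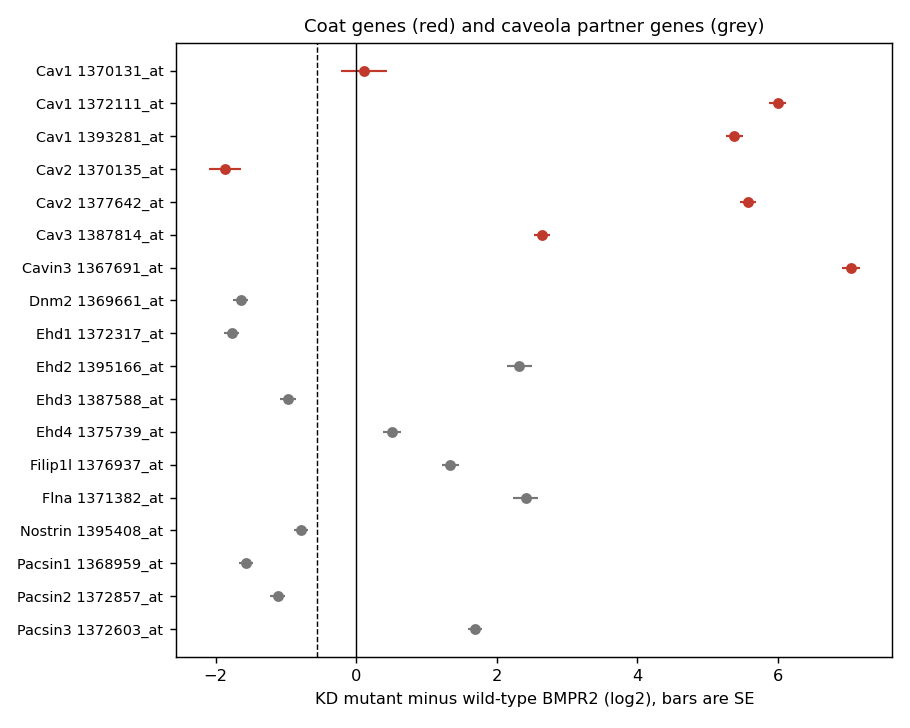
KD mutant minus wild-type BMPR2 in log2 units for the coat probe sets (red) and for the 11 tested caveola partner genes (grey), with SE bars; the dashed line is the median of all tested probe sets, -0.56. Cavin3, 2 Cav1 probe sets and Cav2 1377642_at lie above 5, and the partner genes spread from -1.77 to 2.41.

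Probe sets of one gene often disagreed in this contrast. Among 3376 genes with at least 2 tested probe sets, 1150 (34.1%) had one called higher and another called lower. The spread between probe sets was 5.89 for Cav1, wider than for 97.8% of these genes, against a median of 1.45. Cav2 also had one of each kind, but its higher probe set was below the detection level outside the KD mutant, so no spread is given for it. The Cav1 and Cav2 probe sets that were low or undecided are the ones annotated to a RefSeq messenger RNA, while the high ones are annotated to expressed sequence tags. Of 2335 tested probe sets of the RefSeq type, 29.9% were higher and 61.1% lower, with a median of -0.85. Of 14230 with another accession, 38.1% were higher and 50.7% lower, with a median of -0.32. Tested probe sets without an accession are in neither group. Cav3 and Cavin3 are also of the RefSeq type and were higher, and the part of probe design in these differences was not tested.

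Proteins that shape or hold caveolae went both ways in the KD mutant. Each gene was read by 1 probe set, and over all 12013 genes so read 36.0% were higher and 52.9% lower, with a median of -0.42. Of 11 tested caveola partners 5 rose and 6 fell, with a median of -0.79. Flna, the filamin that ties caveolae to actin, rose by 2.41, with 11.44 and 12.12 in the KD mutant and 9.25 and 9.49 with wild-type BMPR2. Ehd2, the ATPase at the caveolar neck, rose by 2.32, and Pacsin3, an F-BAR protein of muscle caveolae, by 1.70 (limma adjusted p = 1.16e-08). Filip1l, a relative of a filamin-interacting protein, rose by 1.34. Ehd4, a relative of Ehd2, rose by 0.51, and after quantile normalization its difference turned to -0.11. Ehd1, which acts in endocytic recycling, fell by 1.77 and Dnm2, the dynamin that pinches off vesicles, fell by 1.65 (limma adjusted p = 1.58e-08 and 2.01e-08). The differences were -1.57 for Pacsin1, which was below the detection level in the KD mutant, -1.12 for Pacsin2, -0.97 for Ehd3 and -0.79 for Nostrin, an adaptor of endothelial nitric oxide synthase.

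Among 7 tested genes of rafts and membrane cholesterol, 2 rose and 4 fell, with a median of -0.66. Npc2, which carries cholesterol out of the lysosome, rose by 5.97, with 12.27 and 12.35 in the KD mutant and 6.32 and 6.37 with wild-type BMPR2 (limma adjusted p = 5.89e-13), a difference about the size of that at Cav1 1372111_at. Flot1 rose by 0.74, a call lost after quantile normalization, where it was 0.12, and Flot2, its partner in flotillin domains, fell by 0.66. Sgms1, a sphingomyelin synthase, fell by 2.28, Abca1, the cholesterol exporter, fell by 1.44 and Scarb1, the HDL receptor, differed by -0.80. Abca1 had 4.22 and 4.88 in the KD mutant, on both sides of the detection level, so the size of its fall is not exact. Stom, a raft scaffold protein, differed by -0.23 (limma adjusted p = 0.0569), and by 0.17 with each array centred on its median.

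Of 15 tested genes for proteins reported in caveolae or bound by Cav1, 6 rose and 9 fell, with a median of -0.65. Among receptors of the TGF-beta family, Tgfbr1 rose by 1.87, Bmpr1a by 1.62 and the rat Bmpr2 by 1.43. The kinase Src rose by 0.94. Fyn, a related kinase, had 5.36 and 5.51 in the KD mutant, against 3.08 and 3.28 with wild-type BMPR2, and Nos3, the endothelial nitric oxide synthase, had 5.25 and 6.07, against 3.63 and 3.78. Both were called higher, and since their wild-type values lie below the detection level the size of the difference is not measured exactly. The tyrosine kinase receptors Insr, Igf1r, Egfr, Pdgfra and Pdgfrb all fell, with differences of -0.52 (Egfr) to -1.28 (Pdgfra). Egfr lost its call under both other scalings, at -0.14 and -0.12, and Igf1r lost it with each array centred on its median, at -0.25. The ion transport genes Atp2b1, Trpc1 and Atp2b4 fell too, and Kcnma1, the large-conductance potassium channel, fell by 1.86 (limma adjusted p = 9.02e-09). Values of Kcnma1, Pdgfra and Atp2b4 were below the detection level in the KD mutant, so the sizes of these differences are not exact either. No gene of the 3 lists passed in any comparison without the KD mutant.

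The comparisons with empty vector asked what each receptor added to the cell. Cav1 1370131_at and Cav2 1370135_at had lower means in the CD mutant, ED mutant and wild-type lines, and none of these differences passed after adjustment over all probe sets. These comparisons share the empty vector arrays, so a high value there lowers every one of these differences. Cav1 1370131_at averaged 8.09 ± 0.16 in CD mutant cells, 7.68 ± 0.06 in ED mutant cells and 7.88 ± 0.21 with wild-type BMPR2, against 8.52 ± 0.33 with empty vector (SD, n = 2 each). Cav2 1370135_at averaged 7.03 ± 0.06 in CD mutant cells, 6.91 ± 0.20 in ED mutant cells and 6.73 ± 0.28 with wild-type BMPR2, against 7.55 ± 0.43 with empty vector. The gap between the empty vector arrays was 0.46 for Cav1 and 0.61 for Cav2, wider than for 98.0% and 99.6% of tested probe sets.

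**Figure D3:**
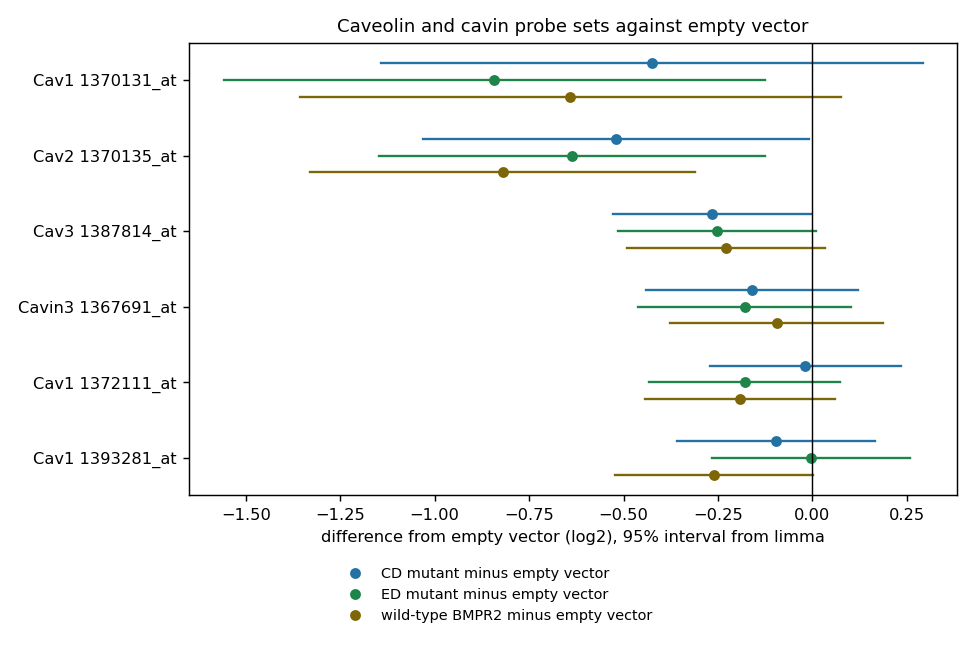
Log2 difference of the CD mutant, ED mutant and wild-type BMPR2 lines from empty vector, with limma's 95% intervals, for 6 coat probe sets. Cav1 1370131_at and Cav2 1370135_at lie lowest with the widest intervals, and all 3 lines are set against the same 2 empty vector arrays. The spread behind each interval is shared by all 5 lines, the KD mutant included.

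For Cav1 1370131_at the difference from empty vector was -0.42 in the CD mutant (95% interval -1.14 to 0.29, limma adjusted p = 0.795), -0.84 in the ED mutant (-1.56 to -0.13, adjusted p = 0.346) and -0.64 with wild-type BMPR2 (-1.36 to 0.07, adjusted p = 0.832). For Cav2 1370135_at it was -0.52 in the CD mutant (-1.03 to -0.01, limma adjusted p = 0.559), -0.64 in the ED mutant (-1.15 to -0.13, adjusted p = 0.307) and -0.82 with wild-type BMPR2 (-1.33 to -0.31, adjusted p = 0.469). The intervals of all but the CD mutant and wild-type values at Cav1 lie below 0, and none of the 6 values passed the adjustment. Without empty vector replicate 1 the Cav2 differences shrank to -0.22 in CD mutant cells, -0.33 in ED mutant cells and -0.52 with wild-type BMPR2, and the Cav1 differences to -0.19 in CD mutant cells, -0.61 in ED mutant cells and -0.41 with wild-type BMPR2. Without empty vector replicate 2 the Cav2 differences were -0.82 in CD mutant cells, -0.94 in ED mutant cells and -1.12 with wild-type BMPR2, and the Cav1 differences -0.65 in CD mutant cells, -1.07 in ED mutant cells and -0.87 with wild-type BMPR2. At Cav3 the differences were smaller, -0.27 in CD mutant cells, -0.25 in ED mutant cells and -0.23 with wild-type BMPR2.

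None of the 7 coat probe sets passed in the CD mutant, the ED mutant or the wild-type line against empty vector, where 0.111%, 0.529% and 0.0133% of all tested probe sets passed. At an unadjusted p under 0.05 there were 2, 2 and 1, beside 8.74%, 11.4% and 6.54% of all probe sets. Without Cav2 1377642_at, which is below the detection level in all these groups, arrays of the 2 groups did not overlap for 5, 4 and 6 of 6, against 41.1%, 45.0% and 42.0% of all probe sets. The fit over all arrays takes 1 shared spread from the 5 lines, the KD mutant included. At Cav1 1370131_at the SD was 0.97 in the KD mutant, against 0.06 to 0.33 in the other lines. When the KD mutant arrays were left out of filter and fit, 19534 probe sets were tested. The share of them that passed was not counted, so the next call has no background beside it. In that fit Cav1 1370131_at passed in the ED mutant against empty vector. Its difference was the same -0.84 (limma adjusted p = 0.0349). Over the alternatives tried for this value the adjusted p ran from 0.0349 to 0.900. The poly-A controls averaged 8.56 and 8.62 in CD mutant cells, 8.24 and 8.28 in ED mutant cells and 7.49 and 8.34 with wild-type BMPR2, against 8.02 and 7.76 with empty vector, and their part in these differences was not tested.

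The CD and ED mutants were also set against wild-type BMPR2, which asks what each mutation changes in the receptor. No coat probe set passed in either, where 0% and 0.164% of all tested probe sets passed, and at an unadjusted p under 0.05 there was also none. Over the 6 probe sets at the detection level outside the KD mutant, which leaves out Cav2 1377642_at, the CD mutant's differences ran from -0.065 to 0.30, and those of the ED mutant from -0.20 to 0.26. The largest in the CD mutant was that of Cav2 1370135_at, 0.30 (95% interval -0.21 to 0.81), and in the ED mutant that of Cav1 1393281_at, 0.26 (-0.01 to 0.52, limma adjusted p = 0.665). Between the ED and CD mutants the differences of these 6 ran from -0.42, at Cav1 1370131_at, to 0.093, and none passed, beside 0.351% of all probe sets. At Cav1 1370131_at the intervals against wild type were -0.50 to 0.93 for the CD mutant and -0.92 to 0.52 for the ED mutant. They were wider than at the other coat probe sets. Their spread is shared by all 5 lines, and the KD mutant's SD there was 0.97, against 0.06 to 0.33 in the others. The width is therefore not that of the CD mutant, ED mutant and wild-type arrays alone.

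**Figure D4:**
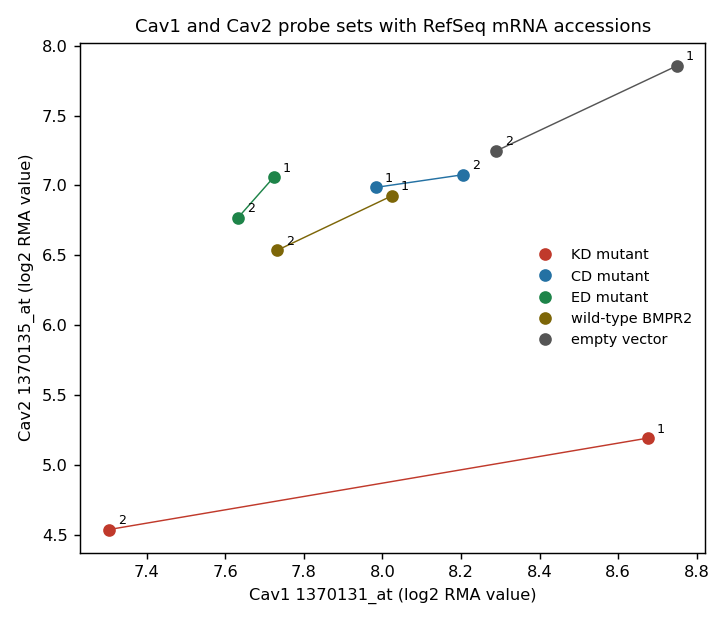
Cav2 1370135_at against Cav1 1370131_at in log2 units, one point per array marked by its replicate number, with a line joining the 2 arrays of each group. The empty vector arrays are highest on the Cav2 axis and the KD mutant arrays lie below all others on it.

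Cav1 1370131_at and Cav2 1370135_at moved together over the 8 arrays outside the KD mutant. Pearson's r was 0.898 (exact permutation p = 0.00362, adjusted over 15 pairs of coat probe sets 0.0543) and Spearman's rho 0.786 (exact permutation p = 0.0279, adjusted 0.138). Without the 2 arrays farthest from the median of Cav1, empty vector replicate 1 and ED mutant replicate 2, r was 0.686. The deviations of the arrays from their group means correlated at 0.943, so the 2 arrays of a line differed at these 2 probe sets in the same direction. This was weaker at the other Cav1 probe sets. The deviations of 1372111_at and 1393281_at correlated with those of Cav2 1370135_at at 0.512 and 0.693, and with those of Cav1 1370131_at at 0.361 and 0.513. Cav3 ran with Cav1 1370131_at and Cav2 1370135_at at 0.816 and 0.847, each with an adjusted exact permutation p of 0.111. Without the 2 farthest arrays it ran with them at 0.224 and 0.791, so the relation of Cav3 with Cav1 1370131_at rests on those arrays. No pair passed after adjustment, and the 8 arrays are 4 pairs from 4 lines, which share a line's RNA or culture to an unknown degree.

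The genes most like Cav1 1372111_at over all 10 arrays, by Pearson's r over 12012 genes, were Tmed3, Hspb1, Slfn9, Antxr2 and Tmx1, each at 0.9995 or above. As 1584 genes exceeded 0.99, these values mostly describe the contrast of the KD mutant with the rest. Over the 8 other arrays the nearest were Tube1 at 0.968, Degs1 at 0.963, Pmf1 at 0.958, Tmed3 at 0.935 and Dgcr8 at 0.934. These are the highest of 12012 genes, on arrays where Cav1 1372111_at ran only from 6.91 to 7.28, so no relation is read from them. The other Cav1 probe sets, 1370131_at and 1393281_at, reached 0.687 and 0.444 there.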

How the data were processed

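The 10 arrays, 2 in each of 5 groups taken from the labels, were used. The deposited values are log2 RMA summaries per probe set, normalized by the authors, per the submitters' processing notes; no software version is given in the sources used here. No scanner files were used, so background correction could not be varied, and arrays give no read depth: their number limits the precision. Probe sets were named from the platform's annotation: 20826 named 1 gene, 436 several and 9780 none, beside 57 controls, which were left out of tests.

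Probe sets at or above the 40th percentile of all values (log2 4.82, called the detection level) on at least 2 arrays were tested, 22502 in all. One limma 3.58.1 model (R 4.3.3; lmFit and eBayes) with 5 group means over all 10 arrays gave differences, and p-values were adjusted by Benjamini-Hochberg over all tested probe sets; a call needs an adjusted p under 0.05. Residual degrees of freedom were 5, and 11.4 with the shared prior. The fit was tested on simulated data.

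The named items are all members, plus genes of lists of caveola partners, raft and cholesterol genes, caveolar cargo and cell type markers; members and lists were chosen with earlier results of these data known. The rule named the 4 genes of lowest adjusted p in a list; the text names every tested gene of 3 lists, an extension made after their values were seen. Likeness is Pearson's r with 1 probe set per gene. Alternatives were other normalizations and filters, a stricter threshold, a fold minimum of 1.5, fits of 2 groups, a replicate block, the fit without the KD mutant, and each array left out. Upstream windows were from RefSeq (GRCr8); Cavin3 had none in the table used. Same-numbered arrays did not deviate together, so replicate numbers were not taken as pairs.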

Additional observations from a re-analysis of the deposited data

How the results depend on the processing

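Of the 136 counts of coat probe sets recomputed under the alternatives, 135 stayed within 1.5 times the reported count. The exception was the ED mutant against empty vector, where the count was 1 in place of 0 when filter and fit left out the KD mutant arrays. The share of all probe sets that passed in that fit was not counted. Of 154 recomputed values of single coat probe sets with the KD mutant, 147 kept their direction and their side of the threshold, as did 400 of 415 without it. After quantile normalization Cav1 1370131_at in the KD mutant was -0.48 against wild-type BMPR2 (limma adjusted p = 0.146), and -1.09 against empty vector, where it then passed (limma adjusted p = 0.00468). Of 358 values of the 33 list genes, 349 kept both; Ehd4 turned to -0.11 after quantile normalization and Stom to 0.17 with each array centred on its median. That centring moved the median of all probe sets in the KD mutant against wild-type BMPR2 to -0.16, and the share of calls that were higher to 47.0%, against 38.5% for the deposited values. The causes were not tested.

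Each array was also left out in turn. Cav1 1370131_at in the KD mutant then ran from -0.58 to 0.80 against wild-type BMPR2 and from -1.22 to 0.16 against empty vector. Small values crossed 0 as well. In the CD mutant against wild-type BMPR2, Cav3 ran from -0.12 to 0.040 and Cavin3 from -0.18 to 0.050. In the ED mutant against wild-type BMPR2, Cav1 1372111_at ran from -0.13 to 0.16, Cav2 1370135_at from -0.012 to 0.38, Cav2 1377642_at from -0.081 to 0.15, Cav3 from -0.095 to 0.048 and Cavin3 from -0.22 to 0.048. Against empty vector, Cav1 1372111_at in the CD mutant ran from -0.066 to 0.028, Cav2 1377642_at in the CD mutant from -0.11 to 0.080 and Cav1 1393281_at in the ED mutant from -0.11 to 0.10.

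Replicate numbers did not mark pairs: the correlations of same-numbered arrays' deviations from their group means ran from -0.018 to 0.114 with a median of 0.023, and 1 of 10 exceeded 0.1. With the replicate number as a block the counts were unchanged, 6 in the KD mutant against wild-type BMPR2 and 0 with wild-type BMPR2 against empty vector, where Cav2 1370135_at had a limma adjusted p of 0.242. The 6 include Cav2 1377642_at, which entered the test only through the KD mutant arrays. No further call of a coat probe set changed under the block. With 2 arrays a group, precision is limited by their number. The level of 4.82 is the 40th percentile of all values, and how far values under it stand above background was not measured.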
